A study of Homo sapiens with 8 samples.

Results

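The genes described here are 10 secreted signals of the myeloid and neutrophil axis: the colony-stimulating factors CSF1, CSF2 and CSF3, the CXC chemokines CXCL1, CXCL2, CXCL3, CXCL5 and CXCL8, and the CC chemokines CCL2 and CCL20. They were chosen by name. Each gene was read at its probe with the highest mean over the 8 arrays, and CSF1 at both of its probes. Of the 10 genes, 8 carried a probe in the annotation used, with 12 probes among the 33446 probes and 15971 named genes of the table. Levels of CSF2 and CCL20 were not analysed here. The 8 genes passed no filter on low values, since none was applied.

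The arrays came from MDA-MB-231, an established human breast cancer cell line with a mesenchymal phenotype and no hormone receptor dependence. Cells were transfected with 75 nM of a precursor of miR-148b (4 arrays) or with a negative control whose dose is not given in the sources used here (4 arrays), and RNA was profiled 48 h later on Agilent whole-genome arrays of 1 colour. The labels call the 4 arrays of a group biological replicates without saying whether they were separate cultures, so every p-value measures the spread between these arrays. The titles also carry a code number from 1 to 3 and, on some arrays, a plus mark, neither of which the labels explain. Code 1 stands on miR-148b replicates 1 and 2 and on control replicate 1. Code 2 stands on miR-148b replicate 3 and control replicates 2 and 3, and code 3 on replicate 4 of both groups. The plus mark stands on miR-148b replicates 2 and 3 and on control replicate 3.

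Colony-stimulating factors drive the production and survival of myeloid cells: CSF1 acts on monocytes and macrophages and CSF3 on neutrophils. CXCL1, CXCL2, CXCL3, CXCL5 and CXCL8 belong to the chemokines that attract neutrophils through the receptor CXCR2, and CCL2 attracts monocytes through CCR2. Breast cancer cells are known to secrete several of these proteins, and NF-kB is a common activator of their genes. A microRNA pairs through its seed, bases 2 to 8, with sites in target messages. The mature miR-148b-3p is shown with the other mature human microRNAs of the same seed in RefSeq (GRCh38.p14), since the precursor delivers this strand and the seed decides which messages can pair with it. Capitals mark the seed.
hsa-miR-148b-3p: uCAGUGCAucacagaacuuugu
hsa-miR-148a-3p: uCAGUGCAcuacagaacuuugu
hsa-miR-152-3p: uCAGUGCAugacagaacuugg
Counted from the 5′ end, miR-148a-3p differs from miR-148b-3p by U9C and C10U, and miR-152-3p by C10G and U20G over the shared length. Target sites in the messages of these genes were not analysed here.

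The 5 CXC genes lie in a cluster on chromosome 4, in the order CXCL8, CXCL1, CXCL5, CXCL3 and CXCL2 in RefSeq, with other genes between them. RefSeq promoter windows, from 250 bases before to 50 bases after the gene start, matched 7 of the 10 listed genes by symbol. The promoters of CXCL1, CXCL2 and CXCL3 are shown because these close relatives were alike over the arrays, though not to the same degree. Their log2 values correlated at Pearson r = 0.95 for CXCL2 with CXCL3, 0.75 for CXCL1 with CXCL2 and 0.66 for CXCL1 with CXCL3. Such values were not particular to these genes. With CXCL1, CXCL2 and CXCL3 in turn, CCL2 correlated at 0.69, 0.98 and 0.94, and CXCL8 at 0.84, 0.77 and 0.59. CXCL5 was at -0.28, -0.15 and -0.28. Capitals mark GGAATTTCC, the longest run of bases that the windows of all 5 CXC genes share, which was found by a search of these windows and is of the kind that NF-kB proteins bind. The 3 windows are 300 bases long each, on GRCh38.p14, at chr4:73869143-73869442 on the plus strand for CXCL1, and at chr4:74099146-74099445 and chr4:74038640-74038939 on the minus strand for CXCL2 and CXCL3.
CXCL1: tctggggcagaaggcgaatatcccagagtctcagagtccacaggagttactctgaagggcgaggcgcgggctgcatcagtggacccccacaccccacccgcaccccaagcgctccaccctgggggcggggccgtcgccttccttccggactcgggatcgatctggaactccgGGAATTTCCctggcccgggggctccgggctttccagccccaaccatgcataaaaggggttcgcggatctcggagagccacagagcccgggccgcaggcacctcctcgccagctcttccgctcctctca
CXCL2: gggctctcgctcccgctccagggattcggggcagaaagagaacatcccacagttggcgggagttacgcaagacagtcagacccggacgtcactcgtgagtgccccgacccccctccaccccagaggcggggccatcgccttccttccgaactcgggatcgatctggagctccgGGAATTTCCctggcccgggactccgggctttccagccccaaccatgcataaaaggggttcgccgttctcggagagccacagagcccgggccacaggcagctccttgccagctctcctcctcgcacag
CXCL3: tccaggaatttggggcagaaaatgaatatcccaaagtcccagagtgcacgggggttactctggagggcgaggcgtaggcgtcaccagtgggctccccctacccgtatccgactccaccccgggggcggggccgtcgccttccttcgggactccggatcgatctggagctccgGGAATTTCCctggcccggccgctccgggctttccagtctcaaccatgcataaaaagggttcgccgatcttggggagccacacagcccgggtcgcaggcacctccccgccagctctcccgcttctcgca
For CXCL5 and CXCL8 the 30 bases around the same run are enough to compare it, at chr4:73998748-73998777 on the minus strand and chr4:73740468-73740497 on the plus strand.
CXCL5: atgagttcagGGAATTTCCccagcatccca
CXCL8: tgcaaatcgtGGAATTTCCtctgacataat

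The run starts 78, 77 and 78 bases before the gene start in CXCL1, CXCL2 and CXCL3, and 90 and 91 bases before it in CXCL5 and CXCL8. Searched on both strands, it occurs in 0.462% of 35097 RefSeq promoter windows. The windows of CSF2 and CCL20 hold it 0 times. The run was picked because the 5 CXC windows share it, so its presence in them was set by that choice. A looser pattern with NF-kB-like spacing, 10 bases long, occurs in 58.7% of all windows. That pattern was found 1 time in CSF2, 7 times in CCL20 and 1 to 6 times in each of the 5 CXC windows. The absence of the run from CSF2 and CCL20 therefore does not set them apart in NF-kB-like letters. Searched in the same way, the pattern TGANTCA, of the kind that AP-1 proteins bind, occurs in 7.71% of all windows and, among the 7, in CXCL8 alone. In global alignments, the windows of CXCL1 and CXCL3 were identical at 82.5% of columns, those of CXCL2 and CXCL3 at 73.8%, and those of CXCL1 and CXCL2 at 71.9%. The window of CXCL8 was identical to the other 4 at 45.2% to 48.0% of columns. These matches describe the letters of the reference sequence and say nothing of binding in these cells.

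The deposited values are normalized intensities on a linear scale, whose array medians lie between 370 and 404 and whose highest value, 243058, is the same on every array. The table carries no detection flag, so no gene could be called absent, and levels of different probes cannot be ranked against each other. Precision is limited by how many arrays there are. Of the markers expected in the line, VIM read 111883 to 185689, CD44 18336 to 64408 and CAV1 33767 to 42218, while SPARC read 43.6 to 368. Of the markers expected to be low, ESR1 read 54.6 to 92.5 and CDH1 17.9 to 115, but EPCAM read 2234 to 3684 and ERBB2 2349 to 6353, which goes against that part of the list.

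CSF1 read lower with miR-148b at both probes, by more at its dimmer probe, but neither difference passed the test over all probes. At the brighter probe (A_23_P45133) the miR-148b arrays of replicates 1 to 4 read 296, 329, 393 and 300.5, and the control arrays 410.5, 382, 496 and 377. The groups overlapped only through miR-148b replicate 3, which lay above control replicates 2 and 4. The means were 329.5 ± 44.5 with miR-148b and 416 ± 55.3 in control (SD, n = 4 each), which is a log2 difference of -0.34 (SE 0.17, limma adjusted p = 0.908). At the dimmer probe (A_23_P407012) the miR-148b arrays read 124, 155, 192 and 163, and the control arrays 279.5, 282, 272 and 259. Every miR-148b array was lower there than every control array. The means were 158 ± 27.9 with miR-148b and 273 ± 10.3 in control (SD, n = 4 each), which is a log2 difference of -0.80 (SE 0.17, limma adjusted p = 0.908).

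The annotation ties the pair of CSF1 probes to different transcript records of the gene, so they need not read the same messages. Control arrays of code 1, 2 and 3 differed little at the dimmer probe, and the miR-148b arrays varied more than they did. Within codes 1, 2 and 3 the log2 difference at the dimmer probe was -1.01, -0.53 and -0.67, and at the brighter one -0.40, -0.15 and -0.33. Blocking on the code number gave -0.74 (SE 0.15, limma adjusted p = 0.503) and -0.29 (SE 0.14, 0.549).

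CSF3, the granulocyte factor, did not separate by treatment. It read 143, 143, 103 and 34.1 on miR-148b replicates 1 to 4, and 224.5, 76.5, 81.9 and 43.9 on control replicates 1 to 4. In both groups the code 1 arrays were the highest and the code 3 array the lowest. The means were 106 ± 51.3 with miR-148b and 107 ± 80.3 in control (SD, n = 4 each), which is a log2 difference of 0.053 (SE 0.59, limma adjusted p = 0.989), and -0.20 (SE 0.21, 0.733) when blocked on code number. Within codes 1, 2 and 3 the difference was -0.65, 0.38 and -0.36.

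**Figure D1:**
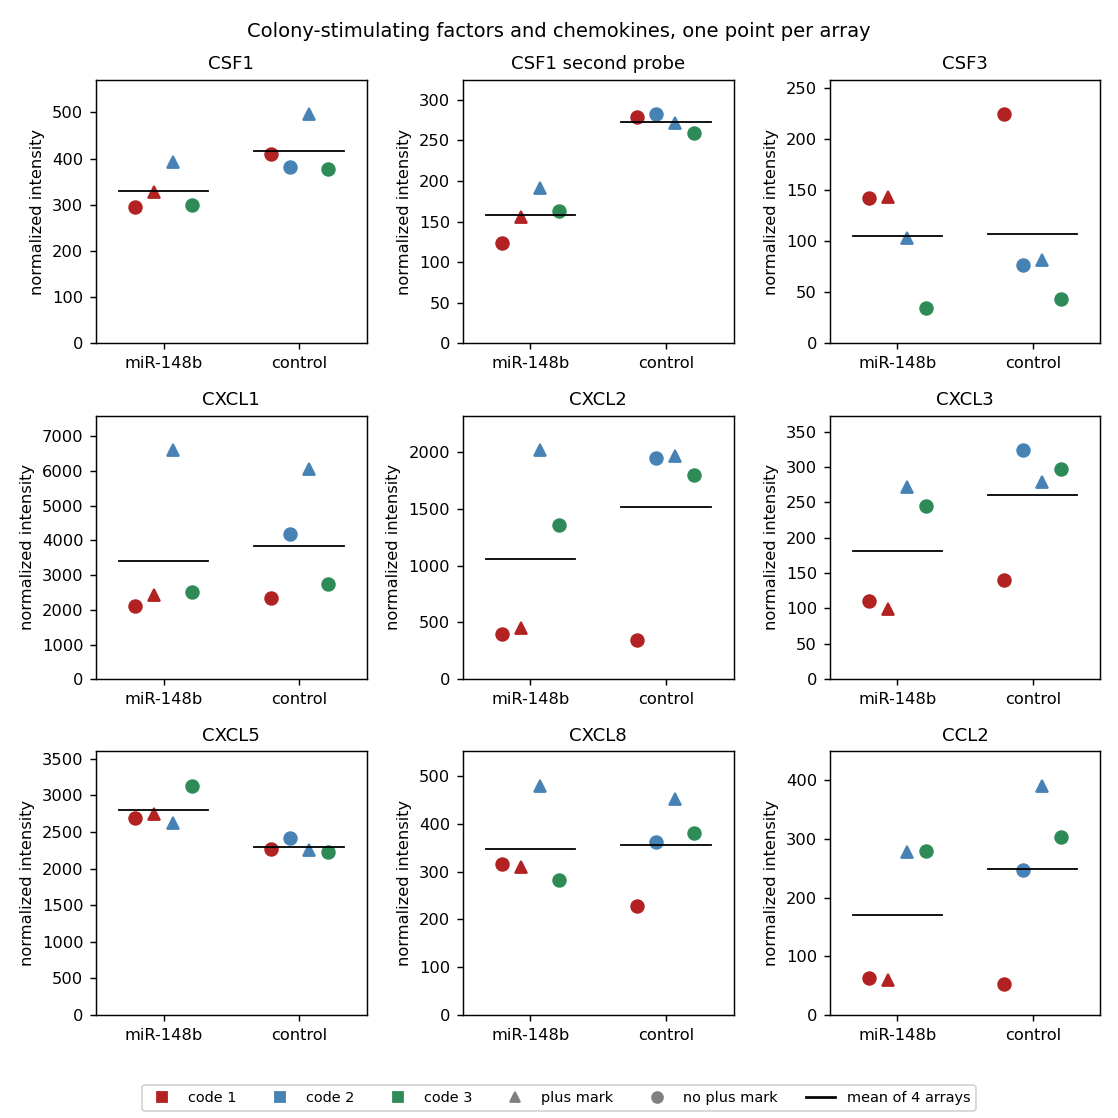
Normalized intensity (linear axis from 0) of the 8 measured genes and the second CSF1 probe, 1 point per array, with miR-148b arrays left of control arrays, colour for the code number, triangles for the plus mark and a line at the mean of 4 arrays. The code 1 arrays are the lowest for CXCL2, CXCL3 and CCL2 in both groups and the highest for CSF3, while CXCL5 and the second CSF1 probe separate the treatment groups.

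Among the chemokines, CXCL5 was the 1 gene whose groups did not overlap by treatment. Its brighter probe read 2684, 2740, 2616 and 3130 on miR-148b replicates 1 to 4, and 2266, 2413, 2250 and 2226 on control replicates 1 to 4. All miR-148b arrays lay above all control arrays. The means were 2792 ± 230.5 with miR-148b and 2288 ± 84.5 in control (SD, n = 4 each), which is a log2 difference of 0.28 (SE 0.15, limma adjusted p = 0.908), which did not pass the test. The difference was 0.26, 0.17 and 0.49 within codes 1, 2 and 3, and 0.29 (SE 0.12, adjusted p = 0.514) when blocked on code number. The other probe of CXCL5 was dim, at 8.09 to 18.1 over the 6 arrays with a value and empty on miR-148b replicate 3 and control replicate 4, and its difference was 0.71 (adjusted p = 0.908).

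CXCL2, CXCL3 and CCL2 had negative differences without a block, smaller than their SE for CXCL2 and CCL2, and values closer to 0 once the fit took out the code number. CXCL2 averaged 1054 ± 778 with miR-148b and 1514 ± 781 in control (SD, n = 4 each), which is a log2 difference of -0.58 (SE 0.72), against 0.0045 (SE 0.16) with the block. CXCL3 averaged 181 ± 89.0 with miR-148b and 260 ± 82.1 in control (SD, n = 4 each), a difference of -0.59 (SE 0.41), against -0.28 (SE 0.13) with the block. The dimmer CXCL3 probe had a difference of -0.0043 without a block. CCL2 averaged 170 ± 126 with miR-148b and 249 ± 143 in control (SD, n = 4 each), a difference of -0.61 (SE 0.77), against -0.022 (SE 0.19) with the block. Code 1 takes in 2 miR-148b arrays but 1 control array, and these genes were lowest on that code. Within codes 1, 2 and 3 the difference was 0.28, 0.045 and -0.41 for CXCL2, and 0.19, -0.17 and -0.11 for CCL2. For CXCL3 it was -0.42, -0.15 and -0.28, and for its dimmer probe 0.64, 0.51 and -0.10. The second, dimmer CXCL2 probe stayed negative in each code, at -0.17, -0.090 and -0.28. Without a block that probe was at -0.60 (limma adjusted p = 0.908).

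CXCL1 and CXCL8 differed in sign between the codes. CXCL1 averaged 3421 ± 2134 with miR-148b and 3837 ± 1682 in control (SD, n = 4 each), which is a log2 difference of -0.23 (SE 0.43), or 0.091 (SE 0.18) when blocked on code number, and -0.046, 0.39 and -0.13 within codes 1, 2 and 3. CXCL8 averaged 347 ± 89.5 with miR-148b and 356 ± 94.1 in control (SD, n = 4 each), a difference of -0.024 (SE 0.26), or 0.14 (SE 0.19) with the block, and 0.46, 0.25 and -0.43 within the codes. The 3 pairs of arrays that match in both title marks, replicates 1, 3 and 4, differed by 0.48, 0.083 and -0.43 for CXCL8.

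**Figure D2:**
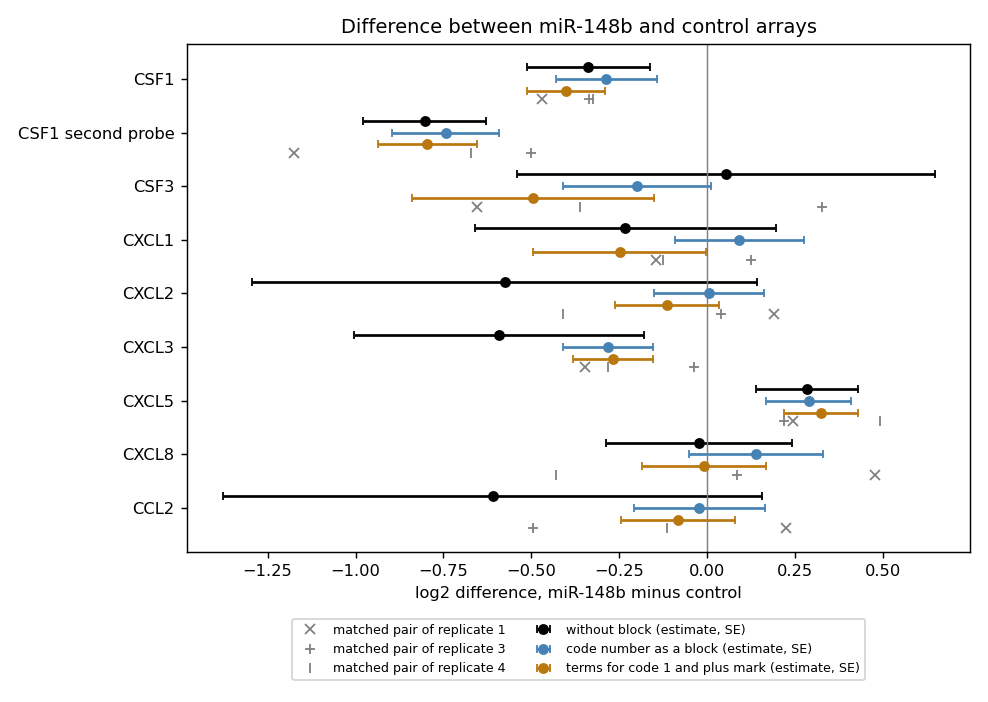
Log2 difference of miR-148b minus control (horizontal axis) for each gene, as the limma estimate with its SE unblocked, blocked on code number, and with code 1 and plus mark as terms, and as crosses, plus signs and bars for the 3 matched pairs of arrays. Both CSF1 probes and the brighter CXCL3 probe stay left of 0 and CXCL5 right of 0 in every fit and pair drawn. CSF3, CXCL1, the brighter CXCL2 probe, CXCL8 and CCL2 have pairs on both sides.

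In the limma test of miR-148b against control, 0 of the 8 genes passed an adjusted p of 0.05, beside 0 of 33446 probes (0%). At an unadjusted p under 0.05, 1431 probes (4.28%) passed. The dimmer CSF1 probe was the 1 of the 9 probes described that did. At the cutoffs named in the series' design text (1.5-fold, with 16% false discoveries allowed) 0 probes passed (0%). Groups without overlap were seen at 1.37% of probes with miR-148b above control, as for CXCL5, and at 1.79% with miR-148b below control, as for the dimmer CSF1 probe. The median difference was -0.29 over the 8 genes and -0.027 over all named genes. Both medians come from the fit without a block, where code 1 holds 2 miR-148b arrays but 1 control array. Blocked on code number, the differences were -0.29 for CSF1, -0.20 for CSF3, 0.091 for CXCL1 and 0.0045 for CXCL2. They were -0.28 for CXCL3, 0.29 for CXCL5, 0.14 for CXCL8 and -0.022 for CCL2. How far the treatment difference itself differed between code 1 and the other codes was estimated with 1 control array on code 1. Over the 9 probes the log2 estimates ran from -0.74 (CSF3) to 0.45 (CXCL8). With 1 such array, whether the treatment difference differs between the codes cannot be decided.

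By code number, 3 chemokines fell and 1 growth factor rose on the code 1 arrays, in a limma fit with terms for treatment and plus mark. CXCL2 read 397, 448 and 348 on miR-148b replicates 1 and 2 and control replicate 1, the code 1 arrays, against 2017 and 1354 on the other miR-148b arrays and 1947, 1963 and 1800 on the other control arrays. All 3 code 1 arrays lay below all others. The means were 398 ± 49.7 (SD, n = 3) on code 1 and 1816 ± 271 (SD, n = 5) on the other codes, a log2 difference of -2.13 (SE 0.15, limma adjusted p = 2.48e-04). The second CXCL2 probe also fell, at 120 ± 22.6 (SD, n = 3) on code 1 and 368 ± 57.5 (SD, n = 5) on the others, with a log2 difference of -1.52 (adjusted p = 3.09e-04).

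CCL2, the monocyte chemokine, also fell. It read 62.3, 59.5 and 53.4 on the code 1 arrays, against 277 and 280 on the other miR-148b arrays and 248, 391 and 303 on the other control arrays. The code 1 arrays again lay below all others. The means were 58.4 ± 4.58 (SD, n = 3) on code 1 and 299.9 ± 54.5 (SD, n = 5) on the other codes, a log2 difference of -2.31 (SE 0.16, limma adjusted p = 2.62e-04).

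CXCL3 fell too. It read 110, 99.8 and 140.0 on the code 1 arrays, against 271 and 244 on the other miR-148b arrays and 324, 278 and 297 on the other control arrays. The means were 117 ± 20.9 (SD, n = 3) on code 1 and 283 ± 29.8 (SD, n = 5) on the other codes, a log2 difference of -1.22 (SE 0.12, limma adjusted p = 7.75e-04). The dimmer CXCL3 probe fell as well, with a difference of -1.18 (adjusted p = 0.00101). CXCL1, CXCL2 and CXCL3 are close relatives in sequence, and whether their probes pick up each other's messages was not tested.

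CSF3 rose on code 1, at 170 ± 47.2 (SD, n = 3) against 67.8 ± 28.3 (SD, n = 5) on the other codes, a log2 difference of 1.58 (SE 0.34, limma adjusted p = 0.0168). All 3 code 1 arrays lay above the 5 others, of which the code 2 arrays averaged 87.1 ± 13.9 (SD, n = 3) and the code 3 arrays 39.0. The call was lost without control replicate 1, the highest array (1.27, adjusted p = 0.123), and without miR-148b replicate 4, the lowest (1.31, 0.0868).

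CXCL1 was highest on the code 2 arrays, as CXCL2 was, but with a wider gap to code 3. It read 2120, 2430 and 2343 on the code 1 arrays, 6611, 4183 and 6066 on the code 2 arrays (miR-148b replicate 3 and control replicates 2 and 3), and 2524 and 2756 on the code 3 arrays. Code 1 lay below all other arrays, but its gap to code 3 was small. The code 1 difference was -0.72 (SE 0.25), and it did not pass (limma adjusted p = 0.0736). It passed with the code number as 3 levels (-0.72, adjusted p = 0.0152), with no treatment term (-0.79, 0.0397) and without the dimmest 50% of probes (-0.72, 0.0392), but not with the split alone (-0.84, 0.123). It passed in 0 of 8 fits that left out 1 array, and was lowest in size without miR-148b replicate 2 (-0.44, adjusted p = 0.260).

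CXCL8 overlapped between code 1 and the other codes, at 284.5 ± 49.4 (SD, n = 3) on code 1 and 392 ± 77.9 (SD, n = 5) on the others, a difference of -0.43 (SE 0.18, limma adjusted p = 0.123). With 1 array left out it passed in 2 of 8 fits, without miR-148b replicate 1 (-0.57, adjusted p = 0.0291) and without miR-148b replicate 4 (-0.66, 0.0483), and was -0.24 (0.516) without control replicate 1. CXCL5, read as 2563 ± 259 (SD, n = 3) on code 1 and 2527 ± 371.5 (SD, n = 5) on the others, had a difference of -0.065 (SE 0.11, adjusted p = 0.690). CSF1 was at -0.043 (SE 0.11, adjusted p = 0.804) and its dimmer probe at -0.16 (SE 0.14, 0.441).

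Over the 8 genes, 3 passed below and 1 above on code 1, and 4 did not pass. Over all probes, 28.6% passed, 14.3% above and 14.4% below, so a call by code 1 is common on these arrays. The median difference was -0.57 over the 8 genes and -0.043 over all named genes. The calls of CXCL2, CXCL3 and CCL2 held in 8 of 8 fits that left out 1 array each, with differences from -2.32 to -1.97, from -1.30 to -1.15 and from -2.41 to -2.19. What code 1 stands for is not given in the sources used here.

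**Figure D3:**
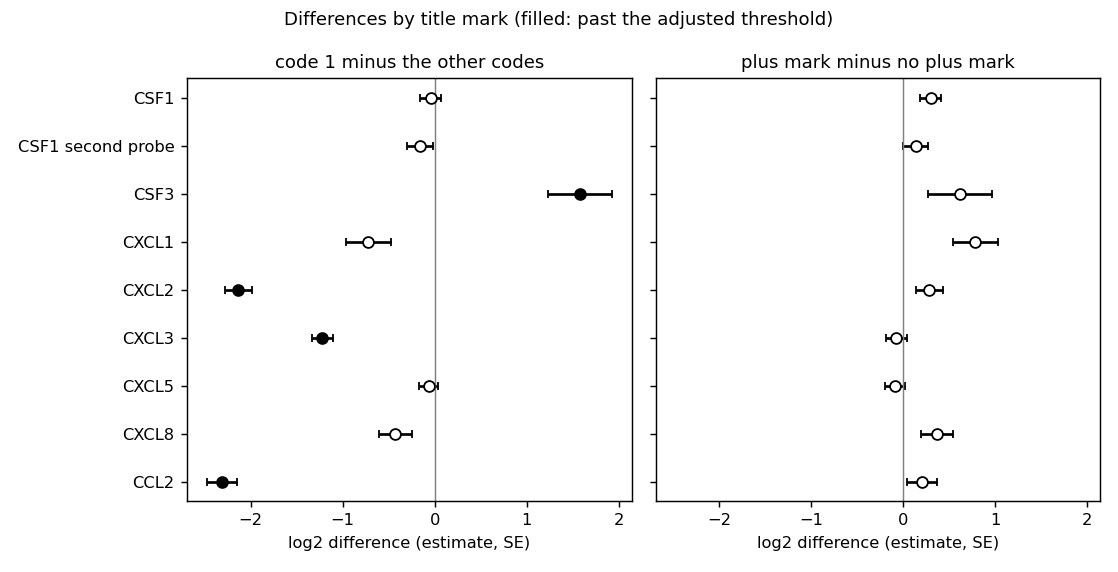
Log2 differences with SE from the limma fit with terms for treatment, code 1 and plus mark: left, code 1 minus the other codes, and right, plus mark minus no plus mark, with filled points past an adjusted p of 0.05. CXCL2, CXCL3 and CCL2 lie left of -1 and CSF3 right of 1 by code, while by plus mark 0 genes are filled.

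By plus mark, 0 of the 8 genes passed, beside 16.7% of all probes, 7.11% above and 9.59% below. CXCL1 had the smallest p, at 5036 ± 2273 on the plus arrays (SD, n = 3) and 2785 ± 815.5 on the arrays without the mark (SD, n = 5), a log2 difference of 0.79 (SE 0.25, limma adjusted p = 0.0739). It passed without the dimmest 50% of probes (adjusted p = 0.0462), in 0 of 8 fits that left out 1 array, and was 0.39 (0.256) with the code number as 3 levels. Among arrays that share code and treatment, the plus array exceeded the other by 0.20 on miR-148b arrays of code 1 and by 0.54 on control arrays of code 2.

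CSF1 was at 0.30 (SE 0.11, limma adjusted p = 0.110), CSF3 at 0.62 (SE 0.34, 0.248), CXCL8 at 0.37 (SE 0.18, 0.186), CXCL2 at 0.28 (0.219) and CCL2 at 0.20 (0.411). The dimmer CSF1 probe was at 0.13 (SE 0.14, 0.532), the second CXCL2 probe at 0.39 (0.0566) and CXCL5 at -0.088 (0.586). Code 3 arrays all lack the mark, so part of these values cannot be told apart from the difference between codes 2 and 3. Between arrays of the same code and treatment, plus minus no plus was 0.0035 (miR-148b, code 1) and 0.10 (control, code 2) for CSF3. It was 0.15 and 0.38 for CSF1, 0.33 and -0.056 for its dimmer probe, and -0.036 and 0.33 for CXCL8. For CXCL2 it was 0.17 and 0.011, and for CCL2 -0.067 and 0.66. With 1 array left out, CXCL8 passed in 1 of 8 fits, without miR-148b replicate 1 (0.52, adjusted p = 0.0461), and was 0.14 (0.638) without miR-148b replicate 4. CXCL3 was at -0.074 (0.680) at its brighter probe, but its dimmer probe rose, at 127 ± 51.9 on the plus arrays (SD, n = 3) and 68.8 ± 26.2 on the arrays without the mark (SD, n = 5), a difference of 0.77 (adjusted p = 0.0120). The 2 CXCL3 probes thus differed in call by plus mark, as they differed in sign by treatment within codes 1 and 2, while both fell by code. The median over the 8 genes was 0.29, and 0.048 over all named genes, both with the limit from code 3 given above.

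The surroundings of these genes were read through 5 gene lists. With miR-148b, 0 of 9 measured genes of the list of receptors, decoys and the ligand IL34, 0 of 16 other chemokines, 0 of 28 genes of the IL1 and NF-kB pathway, 0 of 12 regulators of AU-rich cytokine messages and 0 of 11 AP-1 and C/EBP genes passed. The members of smallest p were IL34, the other ligand of the CSF1 receptor, at -0.65 and the chemokine receptor CXCR4 at 0.75. Among the other chemokines these were CCL17 at -0.57 and CXCL16 at -0.95. In the pathway list they were IL1RAP, a subunit of the IL1 receptor, at 0.58 and IKBKG, a subunit of the IkB kinase, at -0.41. KHSRP and TIA1, proteins that bind AU-rich messages, were at 0.45 and 0.39, and the AP-1 genes JUNB and FOS at 0.49 and 0.25. The list medians, from the fit without a block, were -0.32, -0.48, -0.15, 0.0092 and 0.026.

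By code 1, 32.5% of all named genes passed, 15.5% above and 17.0% below, and the list counts stand beside these shares. In the list of receptors, decoys and IL34, 2 genes fell and 1 rose of 8 tested. CSF1R, the receptor of CSF1, read 683 ± 58.2 on code 1 (SD, n = 3) and 2666 ± 240 on the others (SD, n = 5), a difference of -1.98, and CSF2RA, the ligand-binding chain of the CSF2 receptor, read 141 ± 72.8 and 1799 ± 301, a difference of -3.65. CXCR4 read 8055 ± 1640 on code 1 (SD, n = 3) and 2538 ± 453 on the others (SD, n = 5), a difference of 1.58. Of 16 other chemokines 7 fell and 0 rose, led by CXCL11 (-4.45), CX3CL1 (-2.99), CXCL10 (-3.01) and CCL3 (-1.70). CXCL11 and CXCL10, chemokines induced by interferon, averaged 13.1 and 10.2 on code 1. CCL3 averaged 20.6 there, and the remaining fallers CXCL16, CCL5 and PF4 averaged 34.2, 10.3 and 15.0. Whether such readings exceed background is unknown, so the size of these differences is not settled. Without the dimmest 50% of probes, 2 of these other chemokines were tested, of which 1 fell and 0 rose. With the mean of a gene's probes, 8 fell and 1 rose of 16.

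Of 28 genes of the IL1 and NF-kB pathway, 8 fell and 2 rose on code 1, which is 35.7% called and near the share of all named genes. IL6 read 308.5 ± 35.5 on code 1 (SD, n = 3) and 3185 ± 427 on the others (SD, n = 5), a difference of -3.33, while IL1B, an inducer of NF-kB, read 935 ± 77.5 and 129 ± 49.5, a difference of 3.11. The receptor IL1R1 fell by 1.59 and TNFAIP2 fell by 1.48 on the log2 scale. Of 12 AU-rich regulators 4 rose and 1 fell: TIA1 was at 0.81, KHSRP at 0.72, ZFP36 at 0.41 and ZFP36L2 at -0.73, with RC3H2 as the other riser. Of 11 AP-1 and C/EBP genes 3 fell and 1 rose, with FOSL2 at -0.95, CEBPD at -0.85, ATF3 at -1.05 and JUNB at 0.72. The list medians were -1.06, -0.39, -0.19, -0.091 and -0.082, in the order receptors with IL34, other chemokines, IL1 and NF-kB, AU-rich regulators, AP-1 and C/EBP.

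**Figure D4:**
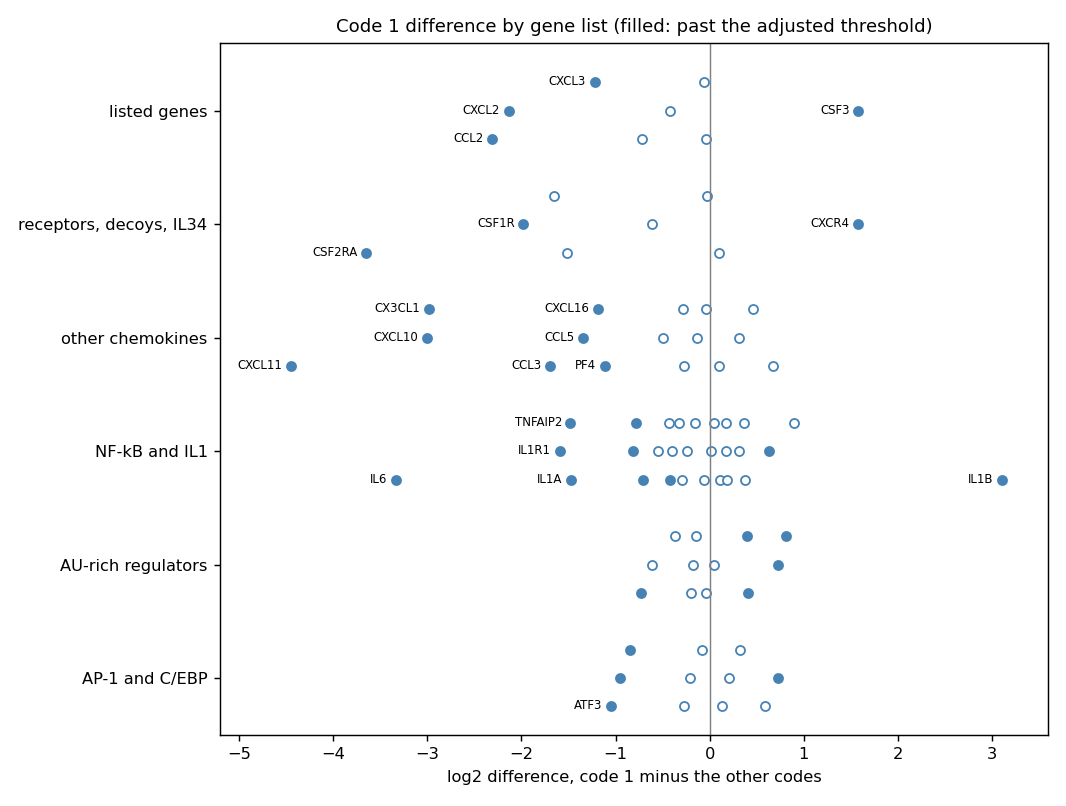
Log2 difference of code 1 minus the other codes (horizontal axis), 1 point per tested gene, for the 8 listed genes and the 5 surrounding lists, with filled points past an adjusted p of 0.05 and names at those beyond 1 in size. The called chemokines all lie left of 0, and called genes of the IL1 and NF-kB list lie on both sides, with IL6 at -3.33 and IL1B at 3.11.

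By plus mark, 13.5% of all named genes passed, 5.74% above and 7.75% below. Of the 8 tested genes of the receptor list 1 fell, CSF2RB, the shared signalling chain of the CSF2 receptor, at -0.92. Of the 16 other chemokines CXCL11 rose (0.95) and CXCL12 (-1.22) and CCL24 (-0.94) fell. Of the 28 IL1 and NF-kB genes 4 rose and 1 fell (17.9% called), with NFKBIZ at 0.92, the kinase CHUK at 0.94, the inhibitor NFKBIA at 0.50 and the receptor TNFRSF1A at -0.50. JUN fell (-0.90) and FOS rose (0.48) among 11 AP-1 and C/EBP genes, and 0 of 12 AU-rich regulators passed, with TIA1 at 0.43 and HNRNPD at 0.30 closest. The list medians were 0.046 for receptors with IL34, 0.036 for other chemokines, 0.061 for IL1 and NF-kB, 0.19 for AU-rich regulators and 0.18 for AP-1 and C/EBP.

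Some markers of other cell types also differed by code 1, as did markers of the line itself. Of 5 tested markers expected in the line, SPARC (-2.13) and CD44 (-1.25) fell and VIM (0.46) rose. Of those expected to be low, ERBB2 (-0.69) fell and the other 3 did not pass. The summed level of 7 leukocyte markers ranged from 1639 to 1995 on code 1 and from 3824 to 4375 on the other codes. The gap of this sum was mostly CSF1R, given above. CSF1R and CD14 were the 2 members that fell and the other 5 did not pass (28.6% called, beside 32.5% of all named genes). PTPRC, the pan-leukocyte marker, read 7.85 to 17.4 over all arrays. The summed level of 7 markers of fibroblasts and endothelium ranged from 545 to 582 on code 1 and from 1496 to 1703 on the others. Of these, COL1A2 (-4.65, with a dim mean of 19.3 on code 1), PDGFRB (-2.58) and COL1A1 (-0.47) fell and PECAM1 (1.53) rose, which is 57.1% called. By treatment the leukocyte sums ranged from 1639 to 3918 with miR-148b and from 1995 to 4375 in control, and the stromal sums from 557 to 1703 and from 545 to 1561. By plus mark the leukocyte sums ranged from 1639 to 4375 on plus arrays and from 1691 to 4332 on the rest, and the stromal sums from 557 to 1703 and from 545 to 1627. No marker of the leukocyte or stromal list was listed at 0, and their part in the differences of CXCL2, CXCL3, CCL2 and CSF3 was not tested. In bulk RNA, fewer cells of a kind and less RNA per cell cannot be told apart.

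The genes whose log2 values followed single members most closely over the 8 arrays were looked up among 9791 genes with complete values above the median level. For CXCL8 these were ORC5 (Pearson r = 0.98), a subunit of the origin recognition complex, COMMD8 (0.96) and GNPDA2 (0.96). For CSF3 they were LMNA (0.98), which encodes lamin A, PPFIBP1 (0.96) and DNAJC14 (0.96). For CSF1 at its brighter probe they were ZFTRAF1 (0.97), PMVK (0.96), a kinase of the mevalonate pathway, and NGEF (0.96). The arrays share the code structure, and with 8 points and 9791 candidates such values are a description only.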

How the data were processed

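The table holds normalized probe intensity values on a linear scale, as the authors deposited them. Per the labels' descriptions, the scans went through Agilent Feature Extraction 10.5.1.1. How background, scaling and dim probes were handled is not given in the sources used here. All 8 columns were used (0 left out). The arrays share their highest value and nearly their quartiles, a form that hides any shift of all genes.

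Log2 was taken with a pseudocount of 0 and no further normalization. Empty cells (2864 probes, at most 3 arrays each) stayed empty, and a probe entered a fit if its remaining arrays kept all terms apart. Of the probes, 24790 had 1 gene in GEO's platform annotation, 27 several and 8629 none listed. Symbols were checked by gene number against RefSeq (GRCh38.p14).

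Tests used limma 3.58.1 in R 4.3.3 (lmFit, eBayes, two-sided, Benjamini-Hochberg over all probes, threshold 0.05) and were tested on simulated data. Treatment was fitted without a block. Code 1 and plus mark were fitted together with treatment. Alternatives covered blocks, terms, probe filters, pseudocount, centring, probe means and left-out arrays. Sequences were aligned with Biopython 1.88 and figures drawn with matplotlib 3.10.9.

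The replicate numbers match the arrays in both title marks for replicates 1, 3 and 4 but not for replicate 2. Deviations from group means correlated at 0.58, 0.58 and 0.59 for replicates 1, 3 and 4 but at -0.49 for replicate 2. The genes and lists were chosen with earlier results of these data known. From each list the text names up to 4 genes per comparison past the threshold by p, otherwise the 2 of smallest p. For CXCL8, CSF3 and CSF1 it names the 3 genes of highest Pearson r. COL1A1, COL1A2, PDGFRB, PECAM1, CD14, RC3H2 and the second probes of CXCL2, CXCL3 and CXCL5 were added after their values were seen. So were CCL5, PF4 and the code 1 level of CXCL16.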

Additional observations from a re-analysis of the deposited data

Results flagged for a closer look

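Within the groups of 4 arrays, 18 sets of values were checked for a single array far from the other 3, by the gap to its nearest neighbour over the whole range. Chance alone passes the limit in about 5% of sets, and 2 passed. CXCL1 on miR-148b replicate 3 read 6611, where the nearest other miR-148b array read 2524. It is the only miR-148b array of code 2, and the control arrays of that code read 4183 and 6066. CXCL2 on control replicate 1 read 348, where the nearest other control array read 1800. It is the only control array of code 1, and the miR-148b arrays of that code read 397 and 448. The part of the code number in either value was not tested apart from the code 1 fit.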

How the results depend on the processing

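The treatment test passed 0 probes in every alternative run, including the replicate block (0 probes) and the 3 matched pairs, and 0 genes of the list passed in any. CSF1 (both probes), CXCL3, CXCL5 and CCL2 kept their sign in every alternative that fitted them. The filter on the dimmest 50% of probes removed both CSF1 probes, CSF3, CXCL3, CXCL8 and CCL2, so these were not fitted there. The sign turned for CSF3 when blocked on code number (-0.20), with terms for code 1 and plus mark (-0.50), in the matched pairs and with code as 3 levels and plus mark (-0.23 in both), without the code 1 arrays (-0.13) and without the plus arrays (-0.38). It turned with the code block for CXCL1 (0.091), CXCL2 (0.0045) and CXCL8 (0.14), and for CXCL8 in the matched pairs and with 3 code levels and plus mark (0.043 in both). With 1 array left out, the treatment difference ranged from -0.28 to 0.53 for CSF3, -0.61 to 0.021 for CXCL1, -0.22 to 0.11 for CXCL8, -1.19 to -0.22 for CXCL2, -1.24 to -0.23 for CCL2 and -0.87 to -0.35 for CXCL3. The last 3 were lowest without control replicate 1 and highest without miR-148b replicate 1 (CXCL2) or 2 (CCL2, CXCL3). None of these values passed, and the cause was not tested.

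The 9510 probes passing by code 1 became 5744 with gene means (fewer features), 5248 on arrays with no plus mark (chosen after seeing the data) and 4777 to 10064 with 1 array left out, the lowest without control replicate 1, with 4983 without miR-148b replicate 4 and 6246 without miR-148b replicate 3. The 5551 passing by plus mark became 2432 with the mark alone, 2253 with gene means, 914 with code as 3 levels (chosen after seeing the data) and 915 to 8136 with 1 array left out, the lowest without miR-148b replicate 4. It was 1866, 2063, 2853 and 2973 without miR-148b replicate 3, control replicate 3, miR-148b replicate 2 and control replicate 4. Small code 1 differences turned for CXCL5 with the split alone (0.027) or no treatment term (0.027) and for CSF1 on arrays with no plus mark (0.057). With 1 array left out they ranged from -0.11 to 0.0085 for CXCL5 and from -0.14 to 0.054 for CSF1. By plus mark the sign turned with the mark alone and with no treatment term for the second CSF1 probe (-0.067 and -0.093) and CXCL5 (0.0019 and 0.0038), with probe means for CXCL3 (0.35), and with 1 array left out for CXCL3 (-0.15 to 0.0063) and CCL2 (-0.041 to 0.30). Without a detection flag, signal over background is unknown, which limits what dim probes can show.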
